A study of Mus musculus with 9 samples.

Results

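The genes described are 10 enzymes of glycolysis and of its branch to lactate: Hk1, Hk2, Gpi1, Pfkl, Pfkp, Aldoa, Pgk1, Pkm, Ldha and Pdk1. They were chosen by name, as the rows of the count table that carry these symbols, with earlier results of these data known. All 10 were found among the 46095 symbols of the table, and all 10 were among the 14593 genes with enough counts to be tested.

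Glycolysis splits glucose into pyruvate. Hexokinases trap glucose in the cell as glucose 6-phosphate, phosphofructokinase is the committed and most tightly controlled step, and pyruvate kinase closes the pathway. Pyruvate is then reduced to lactate by lactate dehydrogenase or used inside mitochondria by the pyruvate dehydrogenase complex, which pyruvate dehydrogenase kinases switch off. Proliferating and tumour cells often run glycolysis in the presence of oxygen, and many of its genes are targets of HIF1A and MYC. Colonic epithelial cells also burn butyrate from the gut lumen.

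Intestinal epithelial cells (IECs) were isolated with EDTA from the colons of C57BL/6J mice, and their RNA was sequenced in 9 libraries. In both groups the floxed Smad4 gene, which encodes a transducer of TGF-beta and BMP signals, was deleted by Cre under the Villin promoter, which is active in the epithelium of the intestine and not in its stroma. The 4 Smad4Vil-KO libraries came from mice with this deletion alone. The 5 Smad4Vil-KO;Setd2Vil-KO libraries, called double-knockout below, came from mice that also had the floxed Setd2 gene, which encodes the enzyme that places H3K36me3 on chromatin, deleted by the same Cre. All mice were given azoxymethane (AOM) at 10 mg/kg by injection at 8 weeks of age and 1 course of 2% dextran sulphate sodium (DSS) in drinking water, a colitis-associated tumour model, and IECs were taken at 10 days of treatment. The comparison asks what the loss of Setd2 changes in IECs that already lack Smad4, and no library from wild-type or untreated mice was used. The labels number the libraries without naming animals, so that p-values measure the spread between these libraries, which may be in part technical.

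The libraries held 12487129 to 17120202 counts, so that 1 count was worth 0.0593 to 0.0793 CPM, the counts of a gene scaled to a common library size. Setd2 had 99.0 to 119.9 CPM in Smad4Vil-KO and 53.8 to 86.9 CPM in double-knockout libraries (log2 fold change -0.77 ± 0.14 (SE), edgeR's quasi-likelihood test after Benjamini-Hochberg adjustment over all genes, adjusted p = 0.00756). Smad4, targeted in both groups, was still counted, at 54.2 to 92.6 and 38.2 to 114 CPM. These counts cover whole genes and cannot separate deleted from remaining exons, so they do not check the Smad4 deletion, which is given here as labelled. The 9 epithelial markers summed to 12942 to 14946 CPM in Smad4Vil-KO and 12316 to 14598 CPM in double-knockout libraries. Of the 8 tested markers of small intestinal enterocytes, 8 had a positive log2 fold change and 7 were called higher in double-knockout libraries, and the 10 markers of the list summed to 206 to 266 CPM in Smad4Vil-KO and 456 to 938 CPM in double-knockout libraries. Apoa1 and Apoa4 were at 0 counts in all 4 Smad4Vil-KO libraries. Of the 6 tested colon markers, 5 had a negative log2 fold change (median -0.44 over the 6) and 2 were called lower, Hoxb13 among them. Over all tested genes, 6.76% were called higher and 6.54% lower. The list, in which Car1 was the most abundant and had a log2 fold change of 0.07, summed to 3739 to 5192 CPM in Smad4Vil-KO and 2013 to 6006 CPM in double-knockout libraries. The 12 leukocyte markers summed to 69.0 to 174 CPM in Smad4Vil-KO and 58.2 to 138 CPM in double-knockout libraries, with none of the 11 tested called by edgeR, DESeq2 or limma-voom and 0 at an unadjusted p under 0.05. None of 5 fibroblast, 2 endothelial, 5 red blood cell and 8 cell cycle genes tested was called by edgeR, where 3 of them had an unadjusted p under 0.05. Y-linked genes were counted above 100 counts in double-knockout replicates 1, 2 and 5 and at 0 to 28 counts in the other 6 libraries, called libraries with few Y-linked counts. In such bulk samples, fewer cells of a type and less RNA per cell cannot be told apart.

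The glycolytic genes were counted in these IECs in both groups, and their median absolute log2 fold change between groups was 0.20, against 0.23 over all tested genes. Per kb of transcript, the scale on which genes can be compared, Aldoa had 605 ± 61.3 CPM per kb (SD, n = 4) in Smad4Vil-KO libraries and Ldha 566 ± 41.9, which did not differ beyond their spread. Pkm followed with 365 ± 20.6 CPM per kb and Gpi1 with 199 ± 18.8 CPM per kb. Pfkp with 70.2 ± 2.40 and Hk1 with 68.7 ± 9.69 CPM per kb overlapped, as did Hk2 with 49.2 ± 9.90, Pfkl with 41.5 ± 6.03 and Pgk1 with 40.6 ± 1.09 CPM per kb. Pdk1 was lowest with 16.5 ± 1.28 CPM per kb. In double-knockout libraries the first 4 kept this order, and Pfkp with 83.8 ± 5.62 CPM per kb (SD, n = 5) stood clear of Hk1 with 53.9 ± 3.43.

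Of the 10 enzymes, 3 passed the test between genotypes at an adjusted p under 0.05, which 13.3% of all tested genes did. Pfkp was the 1 member called higher, against 6.76% of all genes, and Hk1 and Hk2 were the 2 called lower, against 6.54%. The same 3 were the members whose values did not overlap between the groups, as for 17.2% of all genes. None of the 10 passed an adjusted p under 0.01, which 3.92% of all genes did (edgeR, with 3 members at an unadjusted p under 0.05, and 2 members under 0.01 after adjustment with DESeq2, 0 with limma-voom). None reached an unadjusted p under 0.05 together with a 1.5-fold change, as 13.8% of all genes did (edgeR), and 0 of the 10 changed by over 1.5-fold at any p. The median log2 fold change was -0.06 over the 10 members and 0.00 over all tested genes, with 4 members higher and 6 lower in direction. The plot of CPM by library shows how small the shifts were against the level of each gene.

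**Figure D1:**
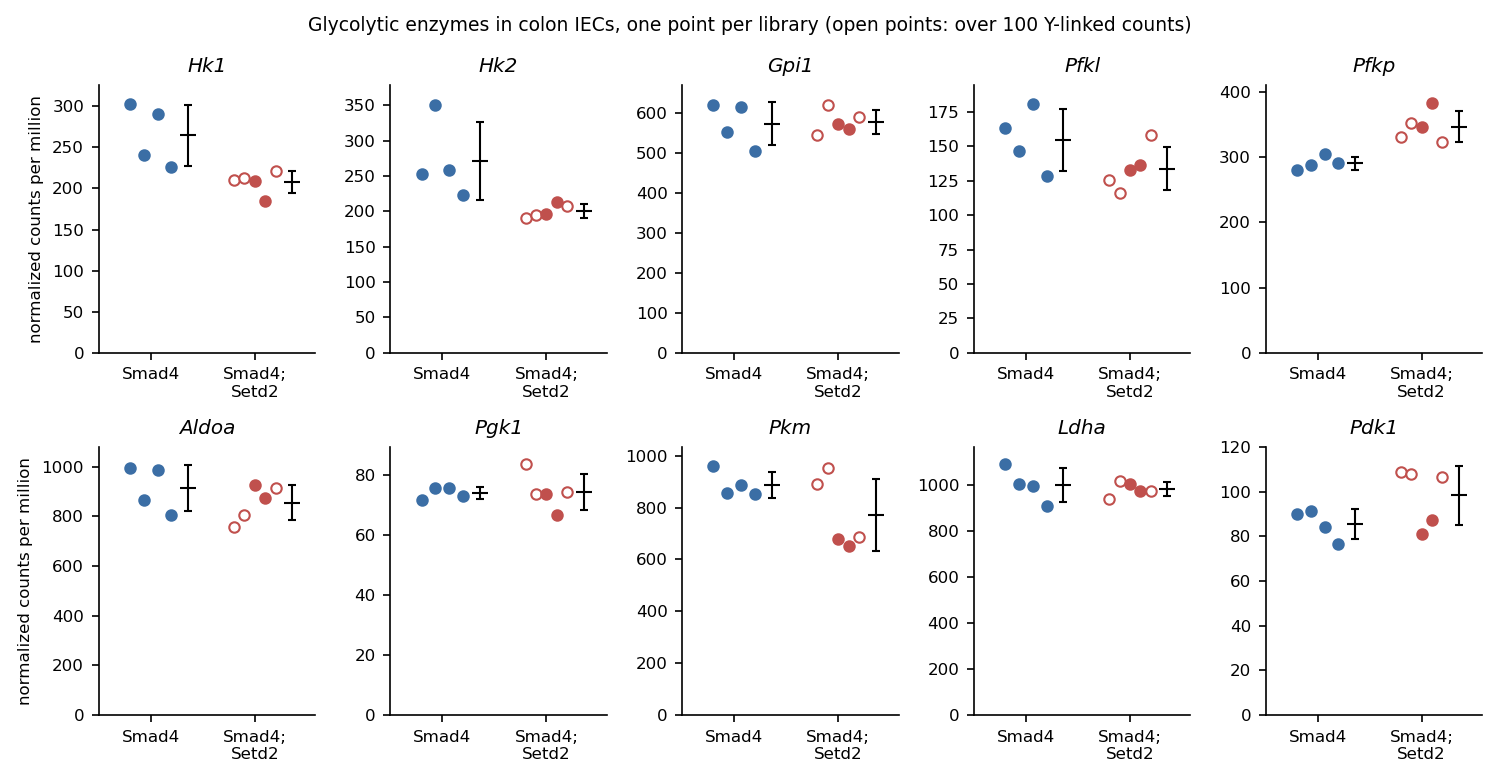
Normalized CPM (vertical axis, from 0) of the 10 glycolytic enzymes in each library of Smad4Vil-KO (Smad4, blue, n = 4) and Smad4Vil-KO;Setd2Vil-KO (Smad4;Setd2, red, n = 5), with the mean and SD in black beside each group. Open points are the 3 libraries with over 100 Y-linked counts. The groups are apart in Hk1, Hk2 and Pfkp, and overlap in the other 7 genes.

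The promoters of 3 of these genes are printed here since they are the textbook places to look for the E-box CACGTG, read by MYC and by carbohydrate-response factors, and for ACGTG, the core of the hypoxia response element. The 250 bases before the annotated start were taken from RefSeq (GRCm38.p6) and searched on both strands. CACGTG holds ACGTG on each strand, so that 1 E-box counts as 2 matches of ACGTG. The Hk2 sequence lies at chr6:82774455-82774704 on the minus strand, that of Pfkp at chr13:6648772-6649021 on the minus strand, and that of Ldha, before 1 of its RefSeq starts, at chr7:46845554-46845803 on the plus strand. Capitals mark ACGTG or its reverse complement CACGT.
Hk2: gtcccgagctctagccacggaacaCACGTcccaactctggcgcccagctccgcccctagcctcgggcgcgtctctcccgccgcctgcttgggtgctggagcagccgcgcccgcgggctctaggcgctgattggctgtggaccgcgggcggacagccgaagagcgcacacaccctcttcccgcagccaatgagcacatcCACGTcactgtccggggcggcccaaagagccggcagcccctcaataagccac
Pfkp: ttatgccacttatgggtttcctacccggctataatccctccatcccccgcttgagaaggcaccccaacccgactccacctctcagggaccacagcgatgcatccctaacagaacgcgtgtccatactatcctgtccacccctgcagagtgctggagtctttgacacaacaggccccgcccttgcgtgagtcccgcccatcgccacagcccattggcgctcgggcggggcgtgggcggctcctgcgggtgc
Ldha: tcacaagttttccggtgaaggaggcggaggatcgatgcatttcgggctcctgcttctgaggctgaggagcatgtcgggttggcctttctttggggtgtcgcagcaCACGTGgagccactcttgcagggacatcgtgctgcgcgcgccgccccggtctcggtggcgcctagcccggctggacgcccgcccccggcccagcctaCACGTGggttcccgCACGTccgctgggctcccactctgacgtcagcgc
Of the members called lower, Hk2 held 2 matches of ACGTG and Hk1 held 0 before both of its starts, with 3 of the related GCGTG before 1 of them. Pfkp, called higher, also held 0 matches of ACGTG and 3 of GCGTG. Ldha, which was not called, held 5 matches of ACGTG, 4 of them in 2 E-boxes, and 0 before its other start. Of the 16 promoter entries of the 10 members, 6 held ACGTG, 2 of them overlapping windows of Aldoa, so that 5 members had it before at least 1 start (Hk2, Aldoa, Pgk1, Pkm and Ldha) and Ldha was the 1 member with CACGTG. Of all 32851 RefSeq promoter windows of the same length, 16.6% held ACGTG, 28.2% GCGTG and 6.02% CACGTG. A match of letters is a description and not a site of binding.

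Both member hexokinases, at the entry of glucose, were lower in double-knockout IECs. Hk1 (chr10:62268855-62379908, minus strand, GRCm38) encodes the broadly expressed isozyme that binds the outer mitochondrial membrane. Its CPM were 302, 240.1, 290.4 and 226 in Smad4Vil-KO replicates 1 to 4 and 209.7, 212, 209.5, 185 and 221 in double-knockout replicates 1 to 5. All 5 double-knockout values lay below all 4 others, by the least between double-knockout replicate 5 and Smad4Vil-KO replicate 4. The mean fell by 21.6%, from 265 ± 37.3 CPM (SD, n = 4) in Smad4Vil-KO to 207 ± 13.2 CPM (SD, n = 5) in double-knockout libraries. This was a log2 fold change of -0.35 ± 0.10 (SE) with a 95% interval of -0.57 to -0.13 (edgeR's quasi-likelihood test, adjusted p = 0.0425). Left out one at a time, Smad4Vil-KO replicate 1, 2 or 3 or double-knockout replicate 1, 2, 3 or 4 ended this call, with an adjusted p of 0.0539 to 0.133 and a log2 fold change of -0.40 to -0.28.

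Hk2 (chr6:82725025-82774454, minus strand) encodes the isozyme typical of muscle, fat and tumour cells. Its CPM were 253, 349.8, 259 and 223 in Smad4Vil-KO and 190.0, 194, 197, 214 and 207 in double-knockout replicates in order. Smad4Vil-KO replicate 2 was the highest by a wide gap, and no double-knockout value reached the lowest Smad4Vil-KO value. The mean fell by 26.1%, from 271 ± 54.6 CPM (SD, n = 4) in Smad4Vil-KO to 200.4 ± 9.79 CPM (SD, n = 5) in double-knockout libraries. The log2 fold change was -0.44 ± 0.12 (SE), with a 95% interval of -0.70 to -0.18 (edgeR's quasi-likelihood test, adjusted p = 0.0341). Without Smad4Vil-KO replicate 2 the log2 fold change was -0.29 (adjusted p = 0.0644). Smad4Vil-KO replicates 1 and 3 and double-knockout replicates 1, 2, 3 and 4 also ended the call when left out, with an adjusted p of 0.0562 to 0.0765. The Hk2 values spread less in double-knockout (coefficient of variation 4.88%) than in Smad4Vil-KO libraries (20.1%), a difference that was not tested.

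Hkdc1, a hexokinase-like gene that lies next to Hk1 at chr10:62383137-62422491, minus strand, moved the other way. It had 15.0, 29.1, 26.7 and 14.1 CPM in Smad4Vil-KO and 57.1, 98.3, 59.5, 86.5 and 33.5 CPM in double-knockout libraries, without overlap, and its log2 fold change was 1.65 ± 0.32 (SE) (edgeR's quasi-likelihood test, adjusted p = 0.00915). The call held in all 18 alternative analyses, with an adjusted p of at most 0.0323. Per kb of transcript, Hkdc1 made 4.81% ± 1.42 (SD) of the sum of Hk1, Hk2 and Hkdc1 in Smad4Vil-KO and 17.2% ± 5.81 in double-knockout libraries. The share of Hk1 was 55.6% ± 6.31 and 49.4% ± 4.61, and that of Hk2 39.6% ± 5.39 and 33.3% ± 2.34. The sum of the 3 isozymes was 124 ± 14.0 CPM per kb in Smad4Vil-KO and 109 ± 5.73 in double-knockout libraries, values that overlapped. The small intestinal markers named above also moved between the groups, and their part in the values of Hkdc1 and of the members was not tested. The log2 ratio of Hk2 to Hk1 counts within a library did not separate the genotypes, with a difference of -0.08 (exact permutation test, two-sided, p = 0.746), which was 0.097 without Smad4Vil-KO replicate 2. The bars of isozyme levels show the band of Hkdc1 widening over narrower bands of both members.

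**Figure D2:**
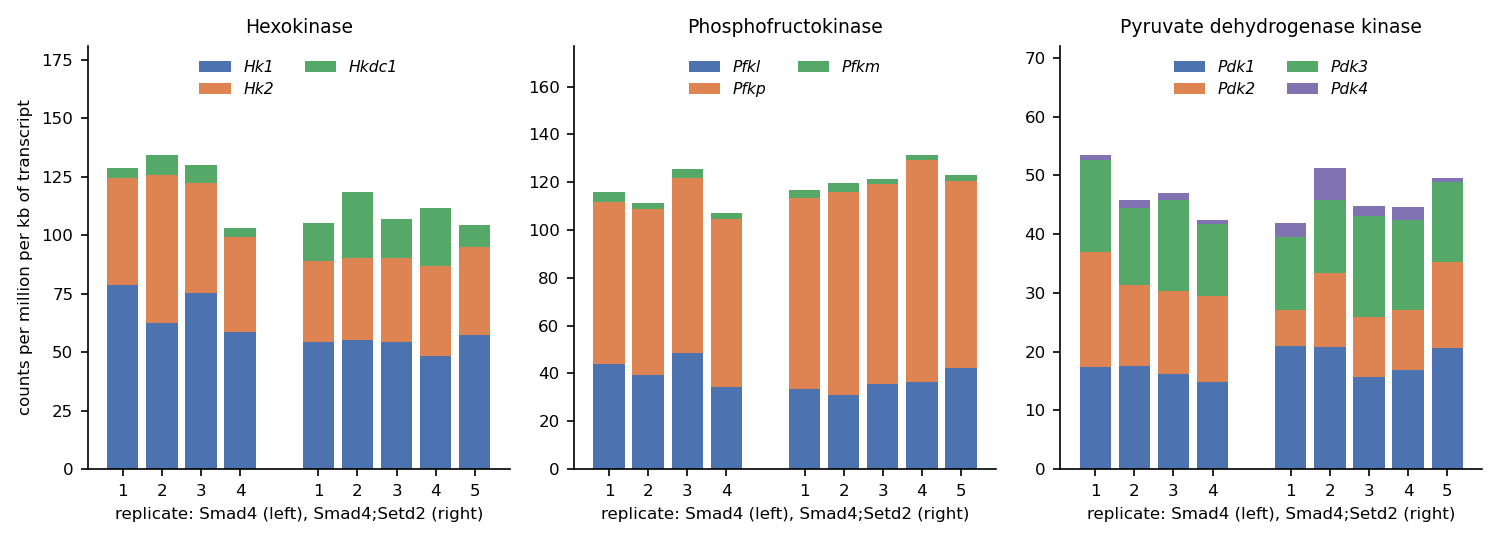
Levels of isozymes in each library, in CPM per kb of transcript stacked from 0, for hexokinases, phosphofructokinases and pyruvate dehydrogenase kinases. The 4 bars on the left of each panel are Smad4Vil-KO (Smad4) and the 5 on the right Smad4Vil-KO;Setd2Vil-KO (Smad4;Setd2), numbered by replicate. Hkdc1 takes a larger part of the hexokinase bar in all 5 double-knockout libraries.

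Gpi1 (chr7:34201330-34230336, minus strand), which turns glucose 6-phosphate into fructose 6-phosphate, did not differ detectably, at 506 to 621 CPM in Smad4Vil-KO and 545 to 621 CPM in double-knockout libraries. Its log2 fold change was 0.01 ± 0.09 (SE) with a 95% interval of -0.18 to 0.20 (edgeR's quasi-likelihood test, adjusted p = 0.947), and the sign turned with small changes of the processing. Of its 50-base words, 25.3% also occurred in other genes, which leaves its level uncertain.

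At the phosphofructokinase step Pfkp was higher in double-knockout IECs, and the other isozymes did not pass the test. Pfkp (chr13:6579768-6648777, minus strand), the platelet-type isozyme common in tumours, had 281, 288, 304 and 291 CPM in Smad4Vil-KO and 331, 352, 347, 383 and 323 CPM in double-knockout replicates in order. All 5 double-knockout values exceeded all 4 others, which lay close together. The mean rose by 19.2%, from 291 ± 9.94 CPM (SD, n = 4) in Smad4Vil-KO to 347 ± 23.3 CPM (SD, n = 5) in double-knockout libraries. This was a log2 fold change of 0.25 ± 0.08 (SE) with a 95% interval of 0.09 to 0.42 (edgeR's quasi-likelihood test, adjusted p = 0.0491). Leaving out any single Smad4Vil-KO replicate, or double-knockout replicate 2, 3 or 4, ended the call (adjusted p = 0.0725 to 0.120, log2 fold change 0.23 to 0.28), as did testing with no filter on low counts (adjusted p = 0.138). Of the 50-base words of its transcript, 17.1% also occurred in transcripts of the neighbouring Pitrm1, whose own log2 fold change was 0.09 (adjusted p = 0.528).

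Pfkl (chr10:77986947-78010083, minus strand), the liver-type isozyme, had 164, 146, 181 and 128 CPM in Smad4Vil-KO and 125, 116, 133, 137 and 158 CPM in double-knockout libraries, which overlapped (log2 fold change -0.21 ± 0.11 (SE), 95% interval -0.46 to 0.04, adjusted p = 0.237). Without Smad4Vil-KO replicate 3 the Pfkl value was -0.13. Within libraries, the log2 ratio of Pfkp to Pfkl counts was 0.78, 0.98, 0.75 and 1.18 in Smad4Vil-KO and 1.40, 1.60, 1.38, 1.49 and 1.03 in double-knockout libraries. It was higher by 0.46 in the double-knockout group, with only double-knockout replicate 5 inside the range of the Smad4Vil-KO values. The exact permutation test over the 9 libraries gave p = 0.0317 (two-sided, smallest possible 0.0159) and 0.143 after adjustment over the 6 isozyme ratios compared, so the ratio did not pass. Per kb, Pfkp made 61.2% ± 3.42 (SD) of phosphofructokinase counts in Smad4Vil-KO and 68.4% ± 2.95 in double-knockout libraries. Pfkm, the muscle-type isozyme, made 2.77% ± 0.660 and 2.30% ± 0.611.

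No difference was detected in Aldoa or Pgk1. Aldoa (chr7:126795234-126800751, minus strand), the aldolase that splits fructose 1,6-bisphosphate, had 807 to 996 CPM in Smad4Vil-KO and 759 to 925 CPM in double-knockout libraries (log2 fold change -0.10 ± 0.10 (SE), 95% interval -0.31 to 0.12, adjusted p = 0.538). The Aldoa value was -0.048, -0.055 and -0.16 without Smad4Vil-KO replicate 1, 3 and 4, -0.054 without double-knockout replicate 1, and -0.020 in the libraries with few Y-linked counts. Pgk1 (chrX:106187100-106203699, plus strand), which makes the first ATP of the pathway, had 71.7 to 75.8 and 66.6 to 83.5 CPM (log2 fold change 0.00 ± 0.08 (SE), 95% interval -0.17 to 0.17, adjusted p = 0.977). Its level is uncertain, since 68.0% of its 50-base words also occurred in other genes, and the pseudogene Pgk1-rs7 had 16 to 40 counts per library.

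Pkm (chr9:59656368-59679375, plus strand), pyruvate kinase of most tissues other than liver and red cells, spread widely among double-knockout libraries. Its CPM were 959.5, 856, 887 and 851 in Smad4Vil-KO and 889, 951, 678, 653 and 685 in double-knockout replicates in order. Double-knockout replicates 3, 4 and 5 lay below all Smad4Vil-KO values, and replicates 1 and 2 lay among them. The mean was 888 ± 50.1 CPM (SD, n = 4) and 771 ± 138 CPM (SD, n = 5), the coefficient of variation 5.64% and 17.9%, and the log2 fold change -0.20 ± 0.13 (SE) did not pass (edgeR's quasi-likelihood test, adjusted p = 0.299). The call appeared with limma-voom and sample weights (log2 fold change -0.32, adjusted p = 0.0335) and in the 6 libraries with few Y-linked counts (-0.41, adjusted p = 0.0149). Pklr, the liver and red cell isozyme, made 9.70% ± 0.278 and 10.8% ± 3.0 of pyruvate kinase counts per kb. The counts were per gene, so that the M1 and M2 forms of Pkm could not be separated, and 34.4% of its 50-base words also occurred in other genes, which leaves its level uncertain.

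Ldha (chr7:46841475-46855627, plus strand), which reduces pyruvate to lactate, had 910.1 to 1091 CPM in Smad4Vil-KO and 939 to 1015 CPM in double-knockout libraries, with the double-knockout values inside the range of the others. Its log2 fold change was -0.03 ± 0.08 (SE) with a 95% interval of -0.21 to 0.15 (adjusted p = 0.847). Ldhb, the heart-type isozyme, was rare at 1.98 to 4.23 and 0.907 to 2.70 CPM. The log2 ratio of Ldhb to Ldha was lower in double-knockout libraries, at -9.35, -8.54, -10.06, -8.87 and -8.51 against -8.00, -8.23, -7.95 and -8.81, a difference of -0.82 (exact permutation test, two-sided, p = 0.0476, adjusted over 6 ratios 0.143). It rested on 13 to 66 Ldhb counts per library and did not pass after adjustment.

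Pdk1 (chr2:71873224-71903858, plus strand), a kinase that switches off the pyruvate dehydrogenase complex, had 89.9, 91.2, 84.1 and 76.6 CPM in Smad4Vil-KO and 109, 108, 80.9, 87.2 and 107 CPM in double-knockout replicates in order. The 3 values above all others belonged to double-knockout replicates 1, 2 and 5, which are the libraries with over 100 Y-linked counts, and replicates 3 and 4 lay among the Smad4Vil-KO values. The log2 fold change was 0.20 ± 0.11 (SE) (edgeR's quasi-likelihood test, adjusted p = 0.228) over all libraries and -0.02 (adjusted p = 0.899) with a term for Y-linked counts. Per kb, Pdk1 made 35.05% ± 2.44 of the 4 kinases in Smad4Vil-KO and 41.0% ± 5.72 in double-knockout libraries, and Pdk2 32.8% ± 3.42 and 22.9% ± 5.53. The log2 ratio of Pdk1 to the sum of Pdk2, Pdk3 and Pdk4 was higher by 0.32 in double-knockout libraries (exact permutation test, p = 0.0952, adjusted 0.190). This difference was 0.19 without double-knockout replicate 1 and 0.063 in the libraries with few Y-linked counts.

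The genotype effect on the 3 called members was near the threshold. The libraries with over 100 Y-linked counts were all double-knockout. With a term for them, the genotype effect rests on the 4 Smad4Vil-KO libraries and the 2 double-knockout libraries with few such counts. In that fit 8.81% of all genes and 0 of the 10 members passed (edgeR, with 4 members at an unadjusted p under 0.05). Their log2 fold changes then were -0.42 for Hk1 (adjusted p = 0.0746), -0.40 for Hk2 (adjusted p = 0.143) and 0.33 for Pfkp (adjusted p = 0.0548). In the 4 Smad4Vil-KO and 2 double-knockout libraries with few such counts, 19.4% of the 15138 genes tested there and 2 members passed, Pfkp with 0.33 (adjusted p = 0.0243) and Pkm. These 2 fits rest on the same contrast and are not separate checks. The 3 log2 fold changes kept their sign in all 18 alternatives, at -0.42 to -0.28 for Hk1, -0.52 to -0.29 for Hk2 and 0.23 to 0.33 for Pfkp. Of the 18, the adjusted p was under 0.05 in 7 for Hk1, 8 for Hk2 and 8 for Pfkp, as the plot of the alternatives shows.

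**Figure D3:**
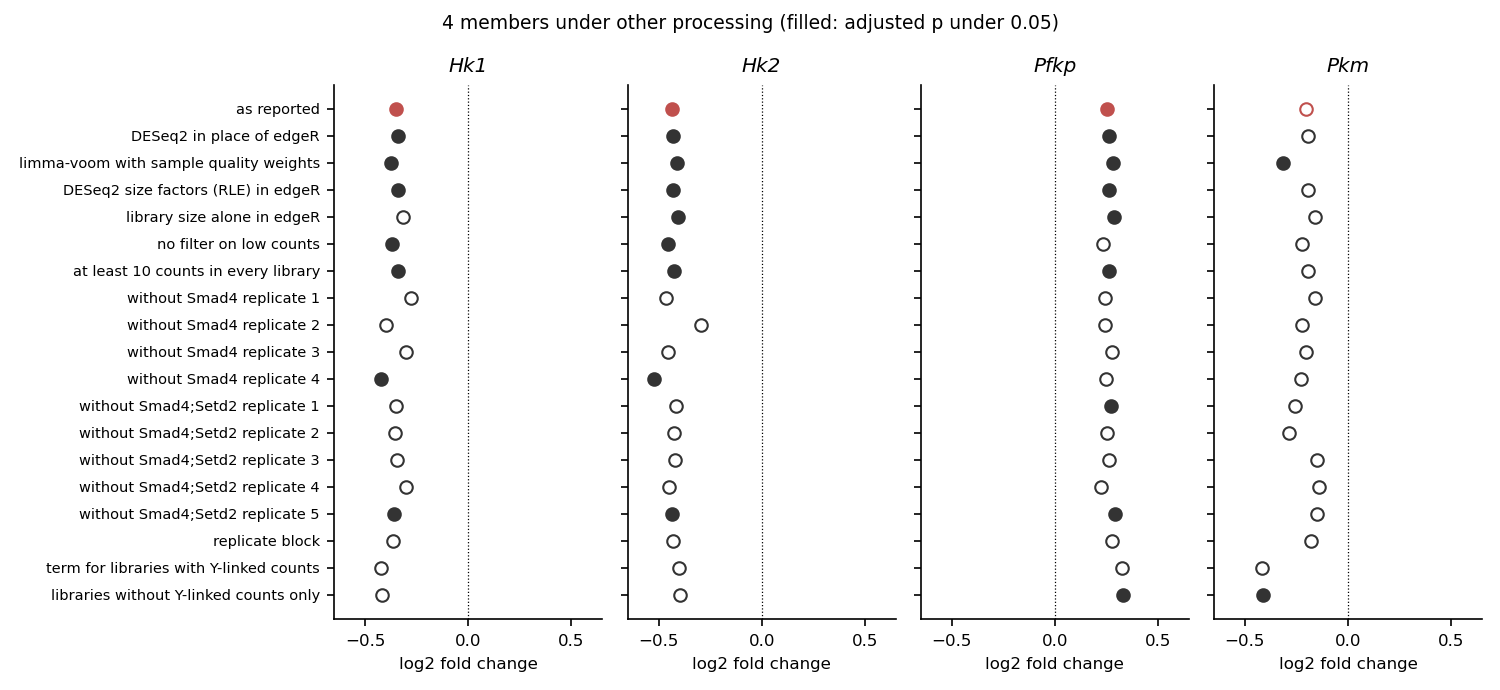
Log2 fold change (horizontal axis, Smad4Vil-KO;Setd2Vil-KO over Smad4Vil-KO) of Hk1, Hk2, Pfkp and Pkm as reported (red) and under 18 other ways to process or choose the libraries (black), with filled points at an adjusted p under 0.05. The points keep to 1 side of 0 in each panel, and many are open. The libraries listed as without Y-linked counts are those with 0 to 28.

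The enzymes varied together to different degrees. Within genotypes, after the group means were taken off, the highest Pearson correlations of log2 CPM over the 9 libraries were those of Hk1 with Gpi1 (0.84), Gpi1 with Ldha (0.83) and Pfkl with Aldoa (0.83), and the lowest was that of Pfkp with Pgk1 (-0.60). Across all 9 libraries without that step, Hk1 and Pfkp, which moved in opposite directions between the groups, had -0.80. These describe 9 libraries that share their depth and normalization within each pair. Among 13687 genes that averaged 1 CPM or more, the gene closest to Hk1 over the 9 libraries was Dnal4 (Pearson 0.988, and 0.970 within genotypes). That for Hk2 was Fut2 (0.955 and 0.878) and that for Pfkp was Srxn1 (0.977 and 0.899). For Ldha it was Nbas (0.927), for Pkm Hoga1 (0.968), for Aldoa Phpt1 (0.970) and for Pdk1 Pnpla2 (0.957). For Gpi1 it was Ndufs7 (0.876), for Pfkl Arf5 (0.942) and for Pgk1 Wiz (0.926). Each is the highest of 13687 correlations over 9 libraries, so high values can arise from this choice alone.

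Of 21 further glycolytic genes, 14 could be tested and 2 passed, Hkdc1 (higher) and Eno3 (lower), where 13.3% of all tested genes passed. Eno3, the muscle enolase, had 23.6, 10.7, 1.10 and 18.1 CPM in Smad4Vil-KO and 0.704, 1.56, 3.001, 1.33 and 1.63 CPM in double-knockout libraries, so that Smad4Vil-KO replicate 3 lay within the double-knockout range (log2 fold change -3.02 ± 0.67 (SE), edgeR's quasi-likelihood test, adjusted p = 0.0159). Without Smad4Vil-KO replicate 1 the Eno3 call was lost (log2 fold change -2.59, adjusted p = 0.0519), as it was with limma-voom (-2.05, adjusted p = 0.275), a replicate block (adjusted p = 0.104), the Y-linked term (adjusted p = 0.110) and in the libraries with few Y-linked counts (adjusted p = 0.0808). Tpi1, which interconverts the triose phosphates, had 548 to 649 and 634 to 798 CPM (adjusted p = 0.239). Gapdh was counted at 39.5 to 46.7 and 40.4 to 60.2 CPM (adjusted p = 0.237), a level that is uncertain because 82.5% of its 50-base words occurred in other genes. Eno1 had a log2 fold change of 0.63 (adjusted p = 0.0921) and its near-identical copy Eno1b one of -0.47 (adjusted p = 0.0664), which share 72.2% and 84.5% of their words with other genes. These p-values are from edgeR, while DESeq2 called both genes and limma-voom called Eno1b. The plot in pathway order sets all of these beside the members.

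**Figure D4:**
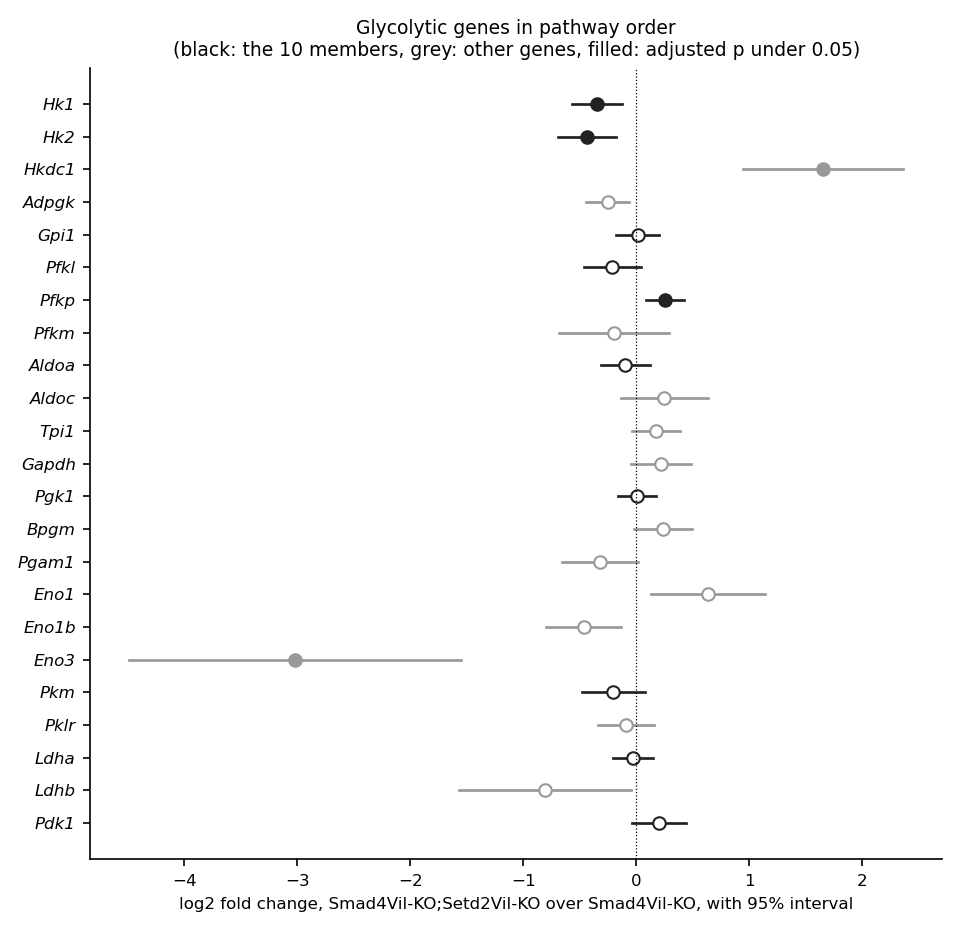
Log2 fold change with its 95% interval (horizontal axis, Smad4Vil-KO;Setd2Vil-KO over Smad4Vil-KO) of tested glycolytic genes from hexokinase at the top to Pdk1 at the bottom, with the 10 members in black, other genes in grey and filled points at an adjusted p under 0.05. The members lie between -0.44 and 0.25, while Hkdc1 at 1.65 and Eno3 at -3.02 lie far outside that range.

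Sugar entry and lactate export were described by 10 tested genes, of which 1 passed, where 13.3% of all tested genes did. Slc16a1 encodes MCT1, which carries lactate, pyruvate and butyrate. It fell from 288 to 408 CPM in Smad4Vil-KO to 172 to 294 CPM in double-knockout libraries (log2 fold change -0.51 ± 0.15 (SE), edgeR's quasi-likelihood test, adjusted p = 0.0449). The call was lost without Smad4Vil-KO replicate 1, 3 or 4 or double-knockout replicate 2, 3 or 4 (adjusted p = 0.0611 to 0.131), with a replicate block (adjusted p = 0.0665) and with the Y-linked term (adjusted p = 0.149). Slc2a1, the glucose carrier GLUT1, had 115 to 151 and 118 to 184 CPM (log2 fold change 0.15, adjusted p = 0.474). Its log2 fold change turned to -0.12 under the Y-linked term, and was 0.23 without Smad4Vil-KO replicate 1 or double-knockout replicate 3, 0.089 without Smad4Vil-KO replicate 4 and 0.058 without double-knockout replicate 2. Slc16a3, the lactate exporter MCT4, had 15.2 to 20.97 and 11.1 to 20.03 CPM (log2 fold change -0.28, adjusted p = 0.353).

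Of 14 genes for the entry of pyruvate into mitochondria and its use there, 1 passed, where 13.3% of all tested genes did. Pcx, pyruvate carboxylase, had 128, 74.7, 84.9 and 91.1 CPM in Smad4Vil-KO and 26.2, 51.0, 41.6, 43.6 and 56.1 CPM in double-knockout libraries without overlap and fell by 53.8% (log2 fold change -1.12 ± 0.21 (SE), edgeR's quasi-likelihood test, adjusted p = 0.00768), a call that held in all 18 alternatives. Of the 5 tested regulators of glycolytic flux, the PFKFB enzymes and Tigar, none passed with edgeR and 1 had an unadjusted p under 0.05, Pfkfb4, which DESeq2 and limma-voom called lower. Of 8 genes of the pentose phosphate pathway, which takes glucose 6-phosphate from the product of the hexokinases, 2 rose. Of all tested genes, 6.76% were called higher. G6pdx, its first enzyme, had 104 to 128 CPM in Smad4Vil-KO and 129.5 to 159 CPM in double-knockout libraries (log2 fold change 0.31 ± 0.08 (SE), adjusted p = 0.0352), and Rpia, ribose 5-phosphate isomerase, 39.7 to 49.7 and 52.8 to 66.9 CPM (0.42 ± 0.10 (SE), adjusted p = 0.0219). The G6pdx call was lost without Smad4Vil-KO replicate 1, 2 or 4 or double-knockout replicate 1, 2, 3 or 4 (adjusted p = 0.0563 to 0.0976), with the Y-linked term (adjusted p = 0.116) and with no filter on low counts (adjusted p = 0.0773). The Rpia call was lost without Smad4Vil-KO replicate 1 or 4 (adjusted p = 0.0667 and 0.0644) and with a replicate block (adjusted p = 0.0573). None of the 16 citric acid cycle genes passed with edgeR, DESeq2 or limma-voom, and 1 had an unadjusted p under 0.05 in edgeR. None of 7 genes of gluconeogenesis and fructolysis passed with edgeR, where 3 had an unadjusted p under 0.05, and DESeq2 and limma-voom each called 2.

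No change was detected in the main transcription factors of glycolytic promoters, with Hif1a at 204 to 245 and 174 to 262 CPM (log2 fold change -0.03, adjusted p = 0.876) and Myc at 35.9 to 46.6 and 30.1 to 52.9 CPM (-0.13, adjusted p = 0.620). Of 9 genes of MYC and the carbohydrate-response factors, none passed with edgeR or DESeq2, 3 had an unadjusted p under 0.05 and limma-voom called 1. Of 24 hypoxia-inducible factors and non-glycolytic targets of hypoxia, 1 rose and 4 fell, where 6.76% of all genes were called higher and 6.54% lower. Ak4, a mitochondrial adenylate kinase, rose (log2 fold change 0.87 ± 0.19 (SE), adjusted p = 0.0150), a call that was lost with the Y-linked term (0.63, adjusted p = 0.0991) and in the libraries with few Y-linked counts (0.64, adjusted p = 0.0606). The 4 that fell were the prolyl hydroxylase subunits of collagen P4ha1 (-0.80, adjusted p = 0.00692) and P4ha2 (-0.96, adjusted p = 0.0264), Epas1, which encodes HIF2A (-0.64, adjusted p = 0.0351), and Hif1an, which encodes an inhibitor of HIF1A (-0.52, adjusted p = 0.0115). The call of Epas1 was lost without any single Smad4Vil-KO replicate or double-knockout replicate 3 or 4 (adjusted p = 0.0603 to 0.0894), and that of P4ha2 without Smad4Vil-KO replicate 1, 2 or 3 or double-knockout replicate 1 or 4 (0.0509 to 0.0769). The Y-linked term also ended the calls of Hif1an (adjusted p = 0.0610), Epas1 (adjusted p = 0.0780) and P4ha2 (adjusted p = 0.115), and P4ha2 was lost as well with a replicate block (adjusted p = 0.0591) and in the libraries with few Y-linked counts (adjusted p = 0.0669). The median log2 fold changes of the metabolic and regulatory lists lay between -0.15 (sugar entry and lactate export) and 0.17 (pentose phosphate pathway). That of all tested genes was -0.0006, and the distance was not tested. The plot of the lists shows them.

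**Figure D5:**
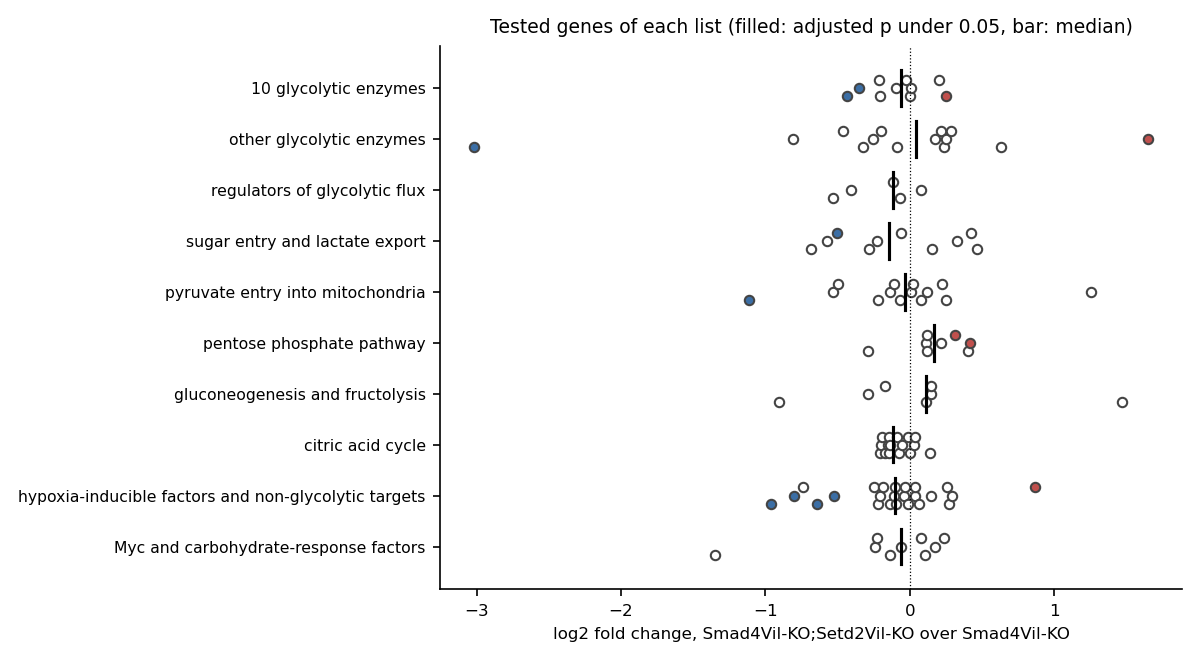
Log2 fold change (horizontal axis, Smad4Vil-KO;Setd2Vil-KO over Smad4Vil-KO) of each tested gene of the 10 glycolytic enzymes and 9 lists around them, 1 row per list, with list medians as black bars and genes at an adjusted p under 0.05 filled in red (higher) or blue (lower). The medians lie between -0.15 and 0.17.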

How the data were processed

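RNA-seq libraries of colon IECs, 4 Smad4Vil-KO and 5 double-knockout, were compared. The authors deposited 1 table of raw read counts per gene symbol, aligned with HISAT2 2.0 to mm10 per the labels. The counting tool, its annotation and strand setting are not given in the sources used here. The 27 symbols that a spreadsheet had turned into dates could not be named. Reads shared between near-identical genes may have been split or dropped, so the share of 50-base words that a gene has in common with others (GENCODE M21) is given for members above 25% and for Pfkp, which shares them with its neighbour.

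Genes were filtered with filterByExpr, scaled by TMM and tested with the quasi-likelihood test of edgeR 4.0.16 in R 4.3.3 on all 14593 genes, with Benjamini-Hochberg adjustment, a threshold of 0.05 and genotype as the only term. The common biological coefficient of variation was 21.2%, and the totals of 12487129 to 17120202 counts limit the precision of rare genes. No 2 libraries of the same genotype agreed within sampling noise. The term for Y-linked counts marks libraries with over 100 such counts, all of them double-knockout. Isozyme ratios used counts plus 0.5 and an exact permutation test, adjusted over the 6 ratios computed, of which 1 is not reported here. Levels per kb used the length of the principal GENCODE transcript. The edgeR fit, and no other step, was tried on simulated counts with known changes. Alternatives were DESeq2 1.42.0, limma 3.58.1 voom with sample weights, other scalings, filters and thresholds, a replicate block, and leaving out libraries. Genes named by rule are the 10 members, Setd2 and Smad4, the called genes of the metabolic and regulatory lists, a set of glycolytic, carrier and regulatory genes at any p, the tested gene most correlated with each member, and cell type markers. Pfkfb4, Eno1b, Pitrm1, Pgk1-rs7, Pklr, Pdk2, Pdk3 and Pdk4 were named after their values were seen. The members and lists were chosen with earlier results of these data known.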

Additional observations from a re-analysis of the deposited data

Results flagged for a closer look

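In 4 of 62 sets of values, 1 library stood far from the rest of its group, where chance alone gives about 1 in 20, or 3.1. Among the members this touched the log2 ratio of Hk2 to Hk1 counts, which was 0.21 in double-knockout replicate 4, above the other double-knockout libraries, and this replicate had the lowest Hk1 value of all 9. Tpi1 was low in Smad4Vil-KO replicate 4, with 548 CPM. Gapdh was high in Smad4Vil-KO replicate 3, with 46.7 CPM among the Smad4Vil-KO libraries. Smad4, labelled as deleted in both groups, was high in Smad4Vil-KO replicate 1, with 92.6 CPM among the Smad4Vil-KO libraries, while double-knockout replicates 2 and 5 had 114 and 98.6 CPM.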

How the results depend on the processing

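Of all genes, 1941 were called, against 2792 with DESeq2, 2924 with limma-voom, 1285 with the Y-linked term, 2930 in the libraries with few Y-linked counts, 572 at an adjusted p under 0.01, and 847 to 2696 when 1 library was left out. The cause was not tested. The member called higher, 1 in all, became 0 with no filter on low counts, with a replicate block, with the Y-linked term, under the rule of a 1.5-fold change and at an adjusted p under 0.01, and 0 to 1 when 1 library was left out. The 2 members called lower became 3 with limma-voom, 1 with library size alone, 1 in the libraries with few Y-linked counts (Pkm, with neither Hk1 nor Hk2 called), 0 with a replicate block, the Y-linked term, the 1.5-fold rule or an adjusted p under 0.01, and 0 to 2 when 1 library was left out. With the replicate block the log2 fold changes were -0.37 for Hk1, -0.43 for Hk2 and 0.28 for Pfkp, and 1618 genes were called. Libraries of the same number correlated at -0.10 to 0.09 in 4 pairs, and those of different number at -0.26 to 0.30. With so few pairs, a pairing by number was neither shown nor excluded. The other glycolytic genes called, 2 in all, were 4 with DESeq2, 4 under the 1.5-fold rule, 1 at an adjusted p under 0.01 and 1 to 3 when 1 library was left out.

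Fold changes near 0 turned sign. Gpi1 was -0.0072 with no filter, -0.017 with the Y-linked term and -0.013 in the libraries with few such counts, and -0.049 to 0.056 when 1 library was left out. Pgk1 was -0.050 with limma-voom, -0.013 with no filter, -0.080 with the Y-linked term and -0.075 in the libraries with few such counts, and -0.039 to 0.052 when 1 library was left out. Ldha was 0.0070 with library size alone and -0.075 to 0.022 when 1 library was left out. Pdk1 was -0.024 with the Y-linked term and -0.020 in the libraries with few such counts, and Slc2a1 was -0.12 in both. Smad4 was -0.18 with limma-voom, -0.14 with the replicate block, -0.71 with the Y-linked term, -0.70 in the libraries with few such counts and -0.11 to 0.37 when 1 library was left out. Hk1, Hk2, Pfkp, Pkm, Pfkl and Aldoa kept their sign in all 18 alternatives. The scalings moved the median of all genes by at most 0.04.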
